A study of Rattus norvegicus with 287 samples.

Results

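The intestine of obese Zucker Diabetic Fatty (ZDF) rats was set against liver, muscle, kidney, pancreas, brain and blood of the same control group, to describe which transcripts were particular to it. The members are the 5 libraries titled Control 7-weeks Obese ZDF Intestine, numbered 1 to 5, and each of the other 6 tissues gave 5 libraries, so 35 of the 287 libraries of the series were used. All 35 came from male obese ZDF rats that received a sham procedure for 7 weeks, in which the porta hepatis was located under isoflurane but no ultrasound energy was delivered. A second group of 5 male obese ZDF rats received peripheral focused ultrasound (pFUS) at that site for 7 weeks, and gave 5 libraries of each of the same tissues, which served as a repeat. The labels give neither the age of the rats nor the stretch of intestine taken. The number that ends each title was read as the rat, the same in all 7 tissues, so that the 5 replicates count as different rats. No other label names an animal, and p-values measure the spread between these libraries.

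The intestinal epithelium is a single layer of cells renewed from stem cells in the crypts. Enterocytes carry a brush border of microvilli, hold digestive enzymes in that membrane and take up sugars, peptides, lipids and minerals. Goblet cells secrete mucus, Paneth cells at the crypt base release antimicrobial peptides, and enteroendocrine and tuft cells sense the lumen. The caudal homeobox factors CDX1 and CDX2, together with GATA and HNF4 factors, are known to bind the promoters of genes for brush border enzymes and lipid carriers. Below the epithelium lie immune cells, enteric neurons and layers of smooth muscle.

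Levels are CPM, read counts scaled to library size with TMM factors, which correct each library for a few dominant transcripts, and they are compared between libraries, not between genes, since no gene length was used. A gene was called intestine-high where the log2 fold change was at least 2 (4-fold) with an adjusted p of at most 0.05 against each of the 6 tissues, by edgeR's quasi-likelihood test with Benjamini-Hochberg adjustment over 16514 genes. It was called intestine-low with a log2 fold change of at most -2 against each, and shared with a tissue where intestine and that tissue each met the rise against the other 5 and differed from each other by less than 4-fold. The tissue with the smallest fold change is named as the nearest tissue, and ± after a log2 fold change is its standard error (SE). These are bulk tissues, in which more cells of a type and more RNA per cell cannot be told apart.

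Total counts ran from 12653580 to 17075804 in the intestine libraries and from 9338963 to 43088790 in the others. A stranded kit for mRNA served for 6 tissues and a stranded kit for total RNA for pancreas, so kit and pancreas cannot be told apart. The 10 most abundant genes took 13.4% to 19.1% of the counts in intestine, 61.7% to 66.7% in pancreas and 88.9% to 91.8% in blood. With library totals in place of TMM factors, chosen after seeing the data, the median log2 fold change of all genes moved from 0.18 to 1.40 against liver, from 0.23 to 1.42 against muscle, from 0.15 to 2.75 against pancreas and from 0.66 to 4.61 against blood. Directions against these 4 tissues are relative to that shift. Brain libraries 2 and 4 held 388 and 382 counts of Avp and 2108 and 3122 of Pmch, which encode hypothalamic peptides, while the other 3 held at most 5 of either. The counts of intestine-high genes and of genes shared with brain are therefore also given with brain libraries 2 and 4 alone. So are log2 fold changes against brain over more than 3 counts. Other counts that rest on brain are given with all 5 brain libraries only. One gene listed only as ENSRNOG00000030106 stood at 3.57 CPM or more in all 7 tissues of rats 3 and 4 and at 2.65 or less in all 7 of rats 1 and 2. Among the libraries numbered 5 the tissues fell on both sides of that gap. There it stood at 19.0 CPM in intestine and 45.2 CPM in blood and at no more than 0.57 CPM elsewhere. Whether the libraries numbered 5 all came from 1 rat was not tested, and for them the matching by number is uncertain. The count without number 5 is given below.

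To show where letters that CDX, GATA and HNF4 factors are known to bind occur, 6 promoters are printed for genes whose values follow. They are those of Si and Lct (brush border sugar enzymes), Alpi (intestinal alkaline phosphatase), Fabp2 (a fatty acid carrier), Lgals4 (a lectin of enterocytes) and Gip (an incretin hormone). Binding of the factors to these promoters was not tested. Each is the 250 bases before the transcript start in RefSeq's rat assembly GRCr8, 5′ to 3′ on the gene's strand, and capitals mark matches to 3 motifs on either strand. These are TTTATG, letters that CDX factors are known to bind, then for GATA factors TGATAA and the variant with another first base, AGATAA, and for HNF4 factors CAAAGTCCA. The GRCr8 positions are chr2:159884903-159885152 (minus strand), chr13:42376873-42377122 (minus strand), chr9:95224781-95225030 (minus strand), chr2:213724379-213724628 (plus strand), chr1:93252035-93252284 (plus strand) and chr10:81464820-81465069 (plus strand).

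Si: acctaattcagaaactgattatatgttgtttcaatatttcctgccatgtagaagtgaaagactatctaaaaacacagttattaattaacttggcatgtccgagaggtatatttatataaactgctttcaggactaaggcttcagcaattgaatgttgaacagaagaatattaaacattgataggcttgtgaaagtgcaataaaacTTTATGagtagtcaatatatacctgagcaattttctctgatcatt
Lct: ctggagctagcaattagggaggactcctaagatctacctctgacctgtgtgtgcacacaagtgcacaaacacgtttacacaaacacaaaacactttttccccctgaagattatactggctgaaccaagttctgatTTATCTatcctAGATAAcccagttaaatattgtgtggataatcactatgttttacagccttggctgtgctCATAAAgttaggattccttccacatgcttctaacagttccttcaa
Alpi: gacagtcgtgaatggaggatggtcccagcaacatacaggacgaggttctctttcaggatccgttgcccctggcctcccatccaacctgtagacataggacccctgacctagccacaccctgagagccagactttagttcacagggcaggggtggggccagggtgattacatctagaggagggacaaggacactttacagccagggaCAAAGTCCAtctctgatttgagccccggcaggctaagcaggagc
Fabp2: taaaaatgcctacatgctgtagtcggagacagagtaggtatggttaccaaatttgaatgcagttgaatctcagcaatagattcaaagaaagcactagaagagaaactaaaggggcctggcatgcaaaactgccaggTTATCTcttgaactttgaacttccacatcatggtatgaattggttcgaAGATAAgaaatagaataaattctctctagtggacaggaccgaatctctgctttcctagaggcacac
Lgals4: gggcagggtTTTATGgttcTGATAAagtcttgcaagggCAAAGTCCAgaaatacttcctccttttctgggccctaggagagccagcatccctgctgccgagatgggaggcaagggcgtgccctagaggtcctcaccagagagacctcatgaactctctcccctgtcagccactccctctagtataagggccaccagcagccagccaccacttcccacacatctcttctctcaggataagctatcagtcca
Gip: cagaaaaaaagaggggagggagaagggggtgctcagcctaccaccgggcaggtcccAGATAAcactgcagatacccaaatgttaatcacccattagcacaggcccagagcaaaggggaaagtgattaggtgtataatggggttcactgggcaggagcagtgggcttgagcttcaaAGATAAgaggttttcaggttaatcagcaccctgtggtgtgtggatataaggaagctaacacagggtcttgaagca

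The Si promoter held the CDX letters 45 bases before the start, and the Lct promoter held them at the same distance on the opposite strand, with GATA letters 115 and 104 bases before the start. Alpi held the HNF4 letters 44 bases before the start, Fabp2 held GATA letters at 114 and 66 bases, and Gip at 194 and 75 bases. Lgals4 held all 3 motifs, 241, 231 and 212 bases before the start. Among the 290 intestine-high genes with a single RefSeq promoter, 40 held the CDX letters (13.8%), against 6.03% of 10864 promoters of all genes tested and 11.1% of all 24206 RefSeq promoters. GATA letters stood in 49 (16.9%), against 9.9% and 16.5%, and HNF4 letters in 4 (1.38%), against 0.377% and 0.343%. The shares of intestine-high promoters thus lay above those of all genes tested. Against all RefSeq promoters the GATA shares were close, and the CDX shares, 13.8% and 11.1%, differed less than against all genes tested. The HNF4 share rests on 4 promoters, and none of these differences was tested. The motifs do not overlap one another in their letters, a match is a description of these windows, and the promoters printed were chosen after their matches were seen.

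Of the 16514 genes tested, 497 were intestine-high (3.01%) and 19 were intestine-low (0.115%). Of the 497, 456 had all 5 intestine libraries above all 30 others, and the median of the smallest log2 fold change was 3.54. For 312 of them at least 1 tissue had no count, so the fitted fold against it has no fixed size; with such folds set to the bound that 3 counts over the tissue's 5 libraries give, the median was 3.35. Kidney was the nearest tissue for 130 of them, blood for 91, pancreas for 78, liver for 71, muscle for 69 and brain for 58. A further 365 genes were high in intestine and 1 other tissue, 140 of them in blood (0.848% of genes tested), 65 in kidney (0.394%), 52 in liver and 52 in brain (0.315% each), 43 in pancreas (0.26%) and 13 in muscle (0.0787%). Against the mean of the 6 tissues 2347 genes were higher (14.2%) and 637 lower (3.86%) by at least 4-fold. With library totals the intestine-high genes numbered 907, among them 494 of the 497, and the intestine-low genes numbered 2. Genes shared with blood then numbered 38, with kidney 170, with brain 137 and with pancreas 17, so the order of the tissues depends on the scale. With brain libraries 2 and 4 alone 537 were intestine-high, 492 of them among the 497, and 49 were shared with brain; without number 5 in all 7 tissues 483 were intestine-high, 469 of them among the 497. By adjusted p alone, with no fold asked, 5885 genes were higher (35.6%) and 4566 lower (27.6%) than in liver, 6399 (38.7%) and 5043 (30.5%) than in muscle and 5081 (30.8%) and 5047 (30.6%) than in kidney. Against the other 3 they numbered 5249 (31.8%) and 4350 (26.3%) than in pancreas, 5686 (34.4%) and 6432 (38.9%) than in brain and 6701 (40.6%) and 3788 (22.9%) than in blood. With library totals these splits were 11191 and 1756 for liver, 10186 and 2178 for muscle, 13477 and 756 for pancreas and 14756 and 347 for blood.

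**Figure D1:**
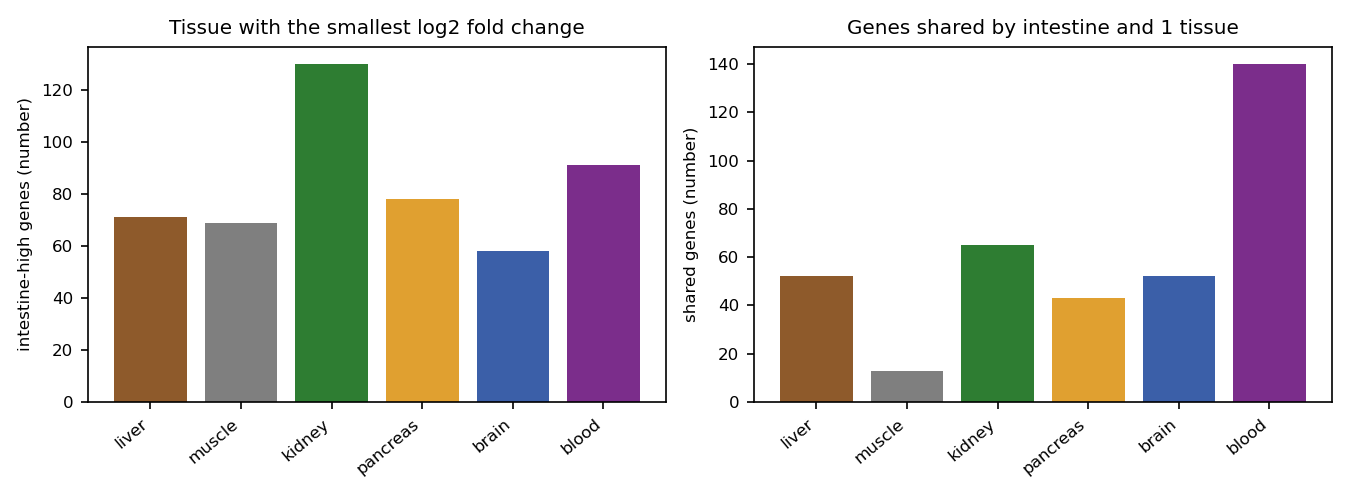
Left, the number of intestine-high genes by the tissue with their smallest log2 fold change; right, the number of genes high in intestine and in 1 other tissue. Kidney led on the left with 130 genes and blood on the right with 140. With library totals in place of TMM factors, 38 genes were shared with blood and 170 with kidney, so blood did not lead there.

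The defining cytoskeletal marker of the brush border, Vil1 (ENSRNOG00000015408), which encodes the actin bundler villin, stood at 1118, 569, 723, 1139.7 and 806 CPM in intestine libraries 1 to 5. In kidney, whose proximal tubule also has a brush border, it was between 62.7 and 111 with a median of 72.8, in pancreas between 44.0 and 54.0 with a median of 49.6, and in the other 4 tissues at most 0.645. All 5 intestine libraries lay above all others, and the smallest log2 fold change was 3.38 ± 0.37, against kidney (edgeR, highest adjusted p of the 6 contrasts 4.67e-09).

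Of 35 epithelial transcription factors listed and tested, 8 were intestine-high, 5 were shared with 1 tissue, and 29 were called higher than the mean of the 6 tissues at 4-fold, a call that 14.2% of all genes met. Their median log2 fold change against that mean was 4.97, or 3.79 with tissues at 0 counts set to their bound, against 0.10 and 0.06 over all genes tested. The 8 became 3 with DESeq2, where Cdx1, Cdx2, Isx and Atoh1 lost the call, and 14 with library totals. Cdx2, the master regulator of intestinal identity, stood at 59.4, 65.8, 52.2, 50.3 and 47.4 CPM and at no more than 0.232 elsewhere, in muscle, where 5 counts were read in all. Cdx1, its close relative, stood at 6.43, 6.54, 3.70, 4.47 and 3.61 CPM, with 2 counts in brain and a ratio to brain of 420.4-fold (95% interval 116 to 3477), an interval that covers counting error only. In blood, where Cdx1 had no count and depth on this scale is least, 3 counts bound it at at least 29.4-fold higher. Isx, an intestinal homeobox factor that represses vitamin A uptake and cleavage, stood at 6.16, 5.33, 5.22, 2.81 and 3.67 CPM and had no count in any of the 30 other libraries, which makes it at least 27.1-fold higher than 3 counts would be in blood, the tissue with the lowest bound. These homeobox genes were thus at or near 0 in the 6 other tissues compared.

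Atoh1, the switch to the secretory lineage, was found at 17.9, 8.02, 8.63, 6.65 and 10.5 CPM, with 2 counts outside intestine in the nearest tissue, brain. Klf5, a factor of dividing crypt cells, stood at 105, 147, 121, 109 and 112 CPM against no more than 9.02 elsewhere. Hnf4g, the intestinal member of the HNF4 pair, stood at 69.8, 73.1, 66.8, 141 and 86.2 CPM against no more than 5.41 elsewhere. Both stood clear of all 30 other libraries. Hnf4a, the partner of Hnf4g, was not particular to intestine: it stood at 174, 203, 225, 197 and 216 CPM there and 378 to 504 CPM in liver (log2 fold change -1.14 ± 0.27, edgeR adjusted p = 0.000532), a direction that turned to 0.089 with library totals. Vdr, the vitamin D receptor, was shared with kidney, at 93.6, 177, 215, 234 and 166 CPM in intestine and 82.3 to 134 in kidney, with overlapping libraries.

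**Figure D2:**
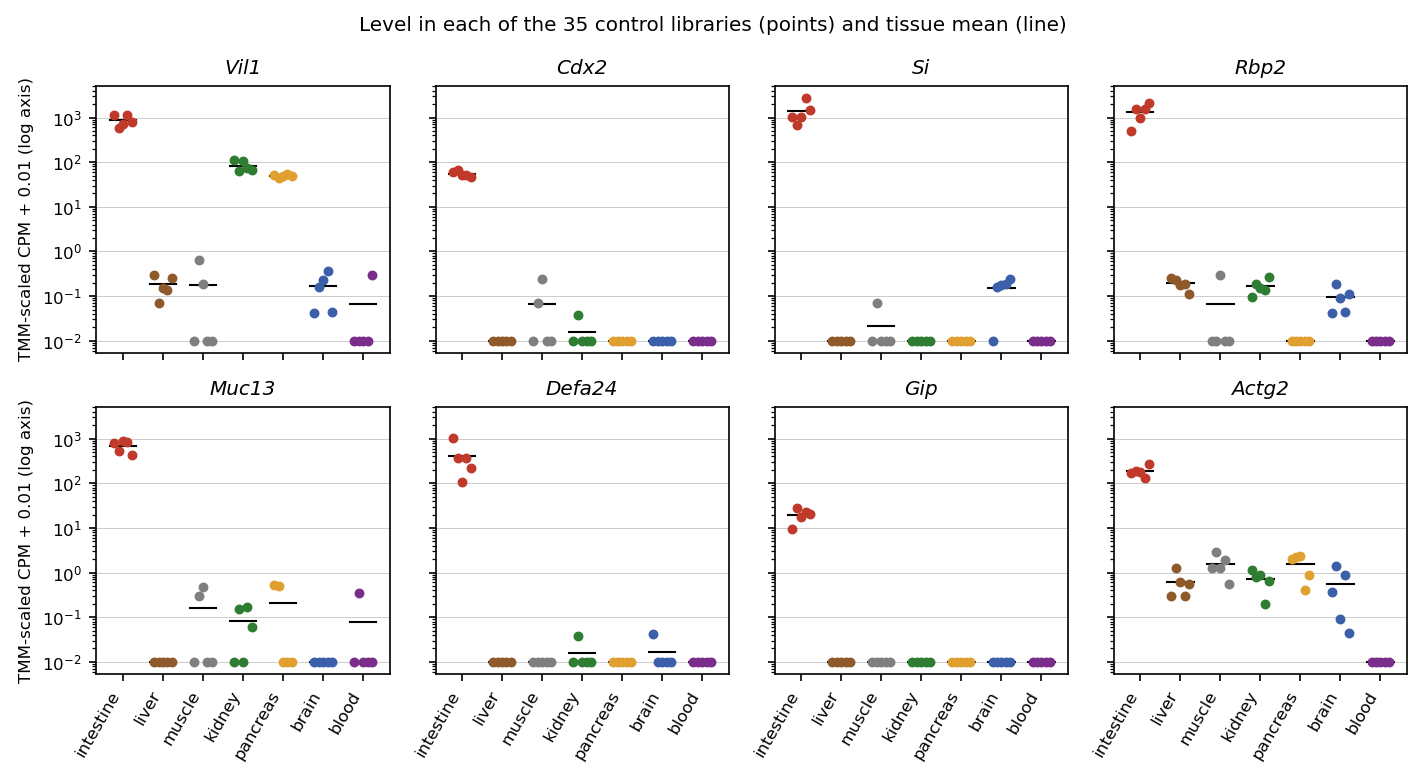
Level of 8 genes in each of the 35 libraries, as TMM-scaled CPM plus 0.01 on a log axis; points are libraries and lines are the mean of a tissue. Every gene shown had its 5 intestine libraries above the other 30, and kidney and pancreas carried the next levels of Vil1.

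Among 30 genes of enterocyte structure, 13 were intestine-high, 28 were called higher than the mean of the 6 tissues, and the median log2 fold change against it was 7.68, or 7.39 with bounds for tissues at 0 counts. Lgals4 stood at 899, 630.5, 509, 672 and 587 CPM in intestine and at no more than 1.35 elsewhere. Myo1a, the motor that ties the microvillus core to its membrane, was at 485, 334, 394, 607 and 391 CPM and at most 0.645 elsewhere. Krt20, the keratin of differentiated enterocytes, stood at 581, 261, 329, 616 and 493 CPM there and at most 2.14 elsewhere. Both groups of values were far apart, with log2 fold changes of 10.99 ± 0.56 against muscle and 8.05 ± 0.47 against pancreas as the smallest of the 6 (edgeR, highest adjusted p 2.57e-14 and 9.07e-14). Cdh17, an intestinal cadherin, stood at 1014, 643, 841, 1049 and 712 CPM, and 1 liver library reached 26.4 while the liver median was 2.39. The 7 shared members were Espn, Ush1c, Cdhr5, Pdzd3 and Pdzk1 with kidney and Lgals3 and Plac8 with blood; Espn, Ush1c and Cdhr5 are known as parts of microvilli. Pdzk1, a scaffold of apical transporters, was in fact higher in kidney, at 151 to 674 CPM against 131, 48.8, 83.0, 181 and 118 in intestine. Keratin Krt18 and the linker Plec, found in many tissues, were lower in intestine than in liver (-2.19 ± 0.25) and muscle (-1.87 ± 0.26) on the log2 scale.

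Of 20 brush border enzymes tested, 13 were intestine-high and 2 were shared, the largest intestine-high share (65%) among the enterocyte lists, and their median log2 fold change against the mean of the 6 tissues was 8.00, or 7.35 with bounds. Si, sucrase-isomaltase, stood at 1042, 664, 1046, 2719 and 1489 CPM in the intestine libraries and at no more than 0.234 elsewhere. Lct, lactase, stood at 406, 281, 328, 904 and 389.7 CPM and at most 0.167 elsewhere. Treh, trehalase, stood at 22.1, 75.7, 166, 144 and 84.1 CPM with 2 counts in its nearest tissue, muscle. For these sugar enzymes the smallest log2 fold changes were 13.08 ± 0.50 and 12.69 ± 0.55, both against brain, where Si had 24 counts and Lct 10 (edgeR, highest adjusted p 2.36e-11 and 3.13e-12), and for Treh a ratio of 3603-fold (95% interval 997 to 29753) to muscle. With brain libraries 2 and 4 alone the values against brain were 13.03 for Si and 13.04 for Lct. All 3 were above every other library, and Si and Lct were highest in intestine library 4.

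Alpi stood at 197, 357, 865, 856 and 448 CPM, against at most 0.695 elsewhere, while the tissue-nonspecific phosphatase Alpl was at 1.82, 1.29, 1.50, 0.690 and 0.844 CPM in intestine and 61.1 to 389 in kidney (log2 fold change -7.18 ± 0.45, edgeR adjusted p = 3.34e-14). The 2 phosphatases thus ran in opposite directions. Mep1a, the meprin A subunit, was shared with kidney, at 425, 156, 134, 408 and 229 CPM in intestine and 105 to 299 in kidney, which overlap (log2 fold change 0.36 ± 0.29, edgeR adjusted p = 0.294). Dpp4, the peptidase that cleaves incretins, did not pass against kidney (0.57 ± 0.27, edgeR adjusted p = 0.0691), and Ggt1, which splits glutathione, was lower than in kidney (-2.47 ± 0.34).

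Of 18 genes for sugar, peptide and amino acid uptake, 4 were intestine-high, 3 were shared with kidney and 14 were called higher than the mean of the 6 tissues. Slc5a1, the sodium-glucose cotransporter SGLT1, stood at 275, 215, 536, 842 and 469.5 CPM, and kidney was next with 6.18 to 16.4; the log2 fold change was 5.30 ± 0.40 (edgeR, highest adjusted p 1.25e-11). Slc15a1, the peptide transporter PEPT1, was at 259.6, 133, 118, 404 and 221 CPM, with kidney next at 3.01 to 17.8 and a log2 fold change of 4.59 ± 0.34. Slc6a14, an amino acid carrier, stood at 17.8, 27.2, 13.2, 22.7 and 26.7 CPM with no count in the 30 other libraries (at least 128-fold higher than 3 counts in blood), and the hexose carrier Slc2a7 at 5.68, 6.71, 17.2, 42.9 and 25.0 CPM with 1 count in its nearest tissue. The first pair was thus graded against kidney, while the second pair was at or near 0 in every other tissue and lost the call with DESeq2, which left 2 of the 4.

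The neutral amino acid carrier Slc6a19 stood at 276, 52.8, 97.1, 246 and 184 CPM in intestine and 45.1 to 187 in kidney, and the cystine carrier subunit Slc7a9 at 49.6, 46.7, 44.5, 66.7 and 49.2 and 62.7 to 108. Their libraries overlapped, and the log2 fold changes against kidney were 0.20 ± 0.26 (edgeR adjusted p = 0.542) and -0.72 ± 0.26 (edgeR adjusted p = 0.0207). Slc3a1, the partner of Slc7a9, was lower than in kidney by a log2 fold change of -2.88 ± 0.32, so members of 1 transport complex did not share 1 ratio between the tissues. The basolateral glucose carrier Slc2a2 was lower than in liver, by a log2 fold change of -1.51 ± 0.28.

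Of 24 genes for transport of ions, minerals, vitamins and bile acids, 6 were intestine-high, 7 were shared and 21 were called higher than the mean of the 6 tissues. Slc26a3, the chloride-bicarbonate exchanger, stood at 42.2, 35.9, 55.4, 60.2 and 37.1 CPM and at most 0.214 elsewhere. Heph, the ferroxidase of iron export, stood at 199.6, 112, 223, 223 and 133 CPM against at most 11.6 elsewhere. Slc26a6, an anion exchanger, stood at 130.1, 127, 174, 251 and 154 CPM against at most 17.8, in blood. These 3 were even among rats, with a highest level under 2-fold the lowest. S100g, the vitamin D-dependent calcium carrier calbindin-D9k, was intestine-high too, at 7.48, 12.0, 458, 9.38 and 49.6 CPM against at most 1.92 elsewhere, in kidney (log2 fold change 4.86 ± 0.66), but rose above 50 CPM in 1 rat only. Cubn, the receptor for intrinsic factor with vitamin B12, was shared with kidney, at 217, 27.0, 1.43, 119.8 and 44.9 CPM in intestine and 136 to 312 in kidney. Its intestine levels spanned 151-fold.

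Of 27 lipid genes, 9 were intestine-high, 8 were shared with liver and with no other tissue, and 23 were called higher than the mean of the 6 tissues; the median log2 fold change against it was 7.71, or 7.68 with bounds. The 8 were the fatty acid carrier Fabp1, the apolipoproteins Apoa1 and Apoa4, and Acsl5, Tm6sf2, Creb3l3, Lrat and Soat2, which activate or esterify lipids or regulate their export. Rbp2, the intestinal carrier of retinol, stood at 493, 1529, 994, 1552 and 2063 CPM and at most 0.289 elsewhere, with a smallest log2 fold change of 12.79 ± 0.52 against liver (edgeR, highest adjusted p 9.53e-15). Fabp2 stood at 701, 411, 273, 789 and 639 CPM against at most 1.80, in liver. Npc1l1, the cholesterol importer, stood at 282, 208, 182, 320.2 and 270.1 CPM against at most 0.293 elsewhere. Mogat2, which rebuilds glycerides from absorbed monoglycerides, was at 72.4, 76.4, 89.2, 96.0 and 74.0 CPM and at most 0.972 elsewhere. Dgat1, the next enzyme, stood at 225, 213, 208, 312 and 218 CPM there and at most 34.1 elsewhere. All of these lay clear of every other library, and Dgat1, made in every tissue, had the smallest margin, a log2 fold change of 3.10 ± 0.21 against liver.

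Fabp1, the liver-type fatty acid carrier, was shared with liver, at 2241, 3444, 2869, 4853 and 4628 CPM in intestine and 1332 to 3266 in liver (log2 fold change 0.72 ± 0.33, edgeR adjusted p = 0.0671). Apob, the frame of chylomicrons and of liver lipoproteins, was lower than in liver by a log2 fold change of -1.71 ± 0.41 (edgeR adjusted p = 0.000619) and Apoc3 by one of -4.91 ± 0.40, while both stood above the other 5 tissues. Bco1, which cleaves carotene to retinal, was intestine-high with the liver nearest (2.65 ± 0.48), and ranged from 24.0 CPM in intestine library 1 to 490.1 in library 4. Npc1l1 in rat liver was at 0 in all 5 libraries, whereas Abcg8, which returns sterols to the lumen or bile, stood at 0.328 to 2.41 CPM in liver and 31.9, 20.5, 16.0, 58.6 and 32.1 in intestine.

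**Figure D3:**
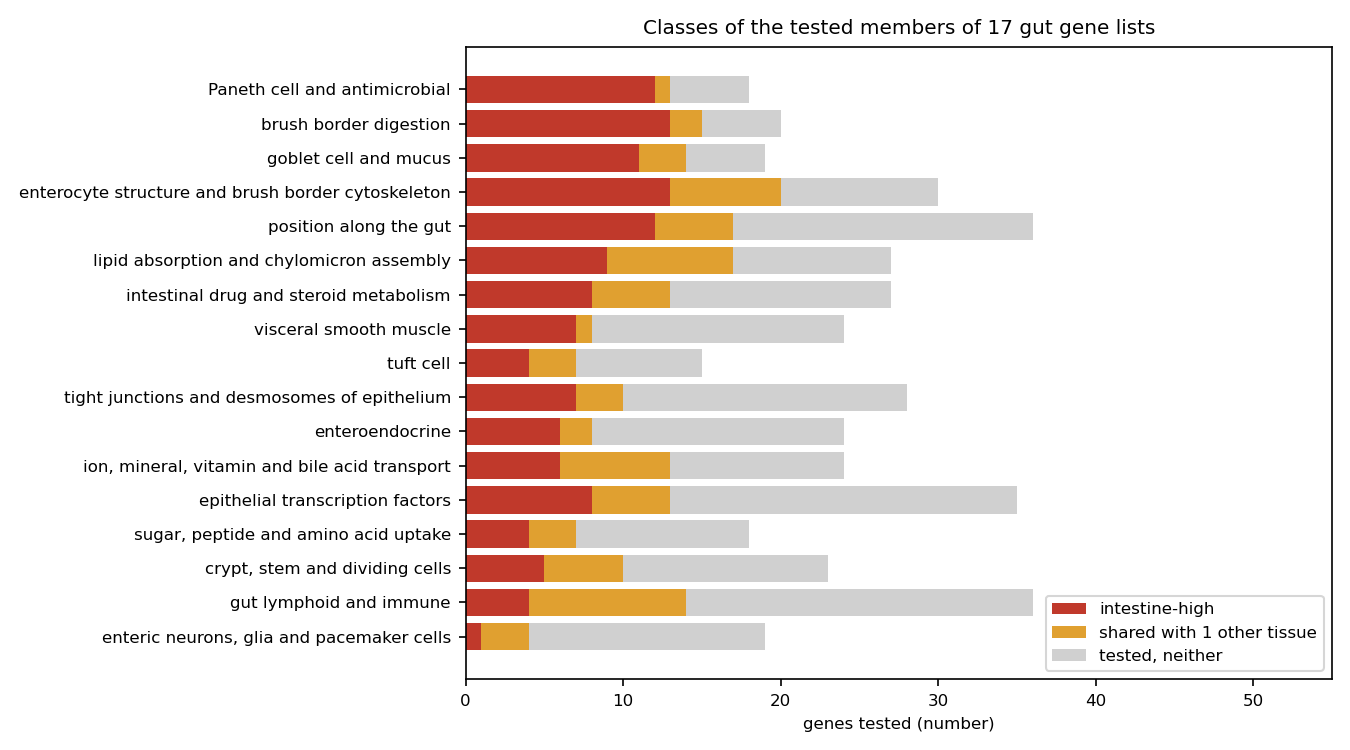
For 17 gene lists, the tested members that were intestine-high, shared with 1 tissue or neither. Paneth cell, brush border enzyme and goblet cell lists had the largest intestine-high shares of tested members (66.7%, 65% and 57.9%). Enteric neurons had the smallest (5.26%), against 3.01% of all genes tested. The lists were chosen as gut genes with earlier results of these data known, so this excess is not a test. Over all members found, tested or not, the first 3 lists had 12 of 22, 13 of 22 and 11 of 21, so the Paneth list no longer led. With DESeq2 they had 7, 11 and 10 such genes, and the Paneth list did not lead either.

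Of 19 goblet cell and mucus genes tested, 11 were intestine-high, 3 were shared and 16 were called higher than the mean of the 6 tissues. Muc2, the gel-forming mucin (listed as AABR07006030.1), stood at 714, 311, 365, 521 and 419 CPM and at most 1.15 elsewhere, and the membrane mucin Muc13 at 792, 517, 865, 839 and 423 CPM and at most 0.509. Clca1, a secreted metalloprotease of mucus, was at 1296, 1126, 637, 745 and 967 CPM and at most 2.73 elsewhere, in brain. Agr2, which folds mucins, stood at 261, 226, 142, 157 and 247 CPM with 2 counts in its nearest tissue, blood. No intestine library of these 4 mucus genes came near another tissue, and the highest level of Clca1 was 2.03 and of Agr2 1.84 times the lowest. Zg16, a lectin of mucus and of pancreatic zymogen granules, was higher in pancreas, at 9809 to 12983 CPM against 921, 383, 297, 523 and 489. Tff2, a peptide of stomach and duodenal glands, had 3 counts in all 5 intestine libraries and 420.2 to 691 CPM in pancreas, and Muc1 was also low in intestine, at most 0.750 CPM.

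Of 18 Paneth cell and antimicrobial genes tested, 12 were intestine-high, 1 was shared and 17 were called higher than the mean of the 6 tissues, with a median log2 fold change of 9.68, or 9.26 with bounds. With DESeq2 the 12 became 7, and Defa6, Defa8, Defa9 and Defal1 were among the calls lost. The list members Defa5, Defa10, Defa11 and Reg3a had no count in any intestine library. Defa24 stood at 1009, 368, 109, 372 and 219 CPM, with 1 count in kidney and 1 in brain among the 30 other libraries and a ratio to brain of 70213-fold (95% interval 12602 to 2773300.0). Defa6 stood at 186, 32.5, 12.0, 56.8 and 7.17 CPM and had no count elsewhere (at least 342-fold higher than 3 counts in blood). Defa8 stood at 322, 79.6, 28.4, 96.0 and 35.5 CPM with 1 count elsewhere in its nearest tissue, muscle. Defal1 was at 484, 225, 46.7, 181 and 148 CPM, Defa9 at 223, 103, 19.2, 74.8 and 67.5 and RatNP-3b at 71.7, 15.3, 7.58, 29.1 and 12.5. Every one of these 6 defensins was highest in intestine library 1, and 5 of them were lowest in library 3, Defa6 being lowest in library 5. Defensins are near-identical copies, so the division of reads among them is uncertain.

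Lyz2 and Pla2g2a, a lysozyme and a secreted phospholipase of Paneth cells, were also highest in library 1 and lowest in library 3, with 2016, 630.5, 274, 729 and 418 and 342, 115, 31.7, 104 and 62.3 CPM, but blood stood higher, at 4384 to 8419 and 164 to 1473 CPM. Their log2 fold changes against blood of -2.88 ± 0.43 and -2.75 ± 0.72 turned to 1.33 and 1.64 with library totals. Guca2a, the gut hormone guanylin, was at 403, 92.8, 63.1, 170.0 and 126 CPM and at most 5.11 elsewhere. Reg3b, a lectin that binds bacteria, was shared with pancreas, at 164, 146, 34.6, 54.7 and 70.1 CPM in intestine and 70.5 to 594 in pancreas, and Reg1a was higher in pancreas (1151 to 3461 CPM against 0.804, 42.8, 22.2, 28.6 and 23.5). Pigr, which carries IgA across the epithelium, was lower than in liver, at 457, 1073, 1324, 941 and 936 CPM against 4378 to 5292 (log2 fold change -2.41 ± 0.24, edgeR adjusted p = 4.14e-10).

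Of 24 enteroendocrine genes, 6 were intestine-high, 2 were shared and 19 were called higher than the mean of the 6 tissues. Gip stood at 9.60, 28.2, 17.3, 22.2 and 21.0 CPM with no count in the other 30 libraries (at least 117-fold higher than 3 counts in blood). Tph1, which makes gut serotonin, was at 6.65, 9.62, 12.3, 9.65 and 9.26 CPM and at most 0.874 elsewhere, and the hormone secretin, Sct, at 5.52, 2.58, 4.65, 2.62 and 3.14 CPM and at most 0.444. Ghrl, the hunger hormone, stood at 0.107, 12.2, 13.2, 6.04 and 9.39 CPM and neurotensin, Nts, at 51.3, 3.52, 0.828, 11.2 and 5.33, so that intestine library 1 was the lowest for Ghrl and the highest for Nts. Both calls were fragile: Ghrl was intestine-high in 40 of 46 alternative settings and Nts in 36, and with brain libraries 2 and 4 alone the log2 fold change of Nts against brain was 1.55, in place of 2.12 ± 0.74. Gcg and Chgb were lower than in pancreas (-3.19 ± 0.43) and brain (-1.75 ± 0.36, and -1.58 with brain libraries 2 and 4 alone). With DESeq2 3 of the 6 calls were left, Gip being among those lost.

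Of 15 tuft cell genes, 4 were intestine-high, 3 were shared and 7 were called higher than the mean of the 6 tissues. Over all genes tested 3.01% were intestine-high and 14.2% met the call against the mean. The median log2 fold change of the list against that mean was 1.68. Summed over the list, levels were 31.7 to 49.3 CPM in intestine, 154 to 420 in blood and 140 to 370 in brain. Trpm5, the taste channel, was intestine-high at 4.50, 5.42, 2.71, 5.79 and 2.66 CPM against at most 1.18. Avil, an actin-binding protein, stood at 6.59, 8.00, 6.34, 6.98 and 5.27 CPM against at most 1.55 elsewhere. Sh2d7 stood at 3.67, 2.30, 0.988, 2.23 and 1.34 CPM and Pou2f3, the factor that specifies tuft cells, at 1.29, 1.68, 1.02, 1.85 and 1.21, a call kept in 43 of 46 settings (log2 fold change against brain 2.13 ± 0.57, and 2.55 with brain libraries 2 and 4 alone). Levels in this list were low, and Dclk1, often used as a tuft cell marker, was lower than in brain (-5.40 ± 0.52, and -4.54 with brain libraries 2 and 4 alone), where neurons express it.

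Of 23 genes of crypt, stem and dividing cells, 5 were intestine-high, 5 were shared and 18 were called higher than the mean of the 6 tissues; with library totals 9 were intestine-high. Olfm4, of crypt base cells, stood at 321, 204, 96.9, 174 and 182 CPM against at most 6.44 elsewhere. Top2a, the topoisomerase of dividing cells, stood at 65.1, 66.2, 35.3, 42.5 and 62.0 CPM against at most 11.3, in kidney. The log2 fold changes against kidney were 6.47 ± 0.49 and 3.69 ± 0.46 (edgeR, highest adjusted p 4.64e-12 and 5.69e-08), and no intestine library overlapped another tissue. Mki67, another marker of division, was shared with blood, at 75.7, 112, 63.4, 67.5 and 87.3 CPM in intestine and 49.2 to 125 in blood; its log2 fold change of -0.00 ± 0.55 moved to 4.29 with library totals. Smoc2, of crypt and stromal cells, was shared with muscle, at 17.9, 32.3, 26.2, 22.7 and 27.4 and 14.8 to 50.3 CPM.

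Of 28 junction genes, 7 were intestine-high, or 14 with library totals, and 22 were called higher than the mean of the 6 tissues. Cldn15, the claudin that lets sodium pass, stood at 139, 111, 177, 197 and 107 CPM and at most 2.41 elsewhere. Cldn7 stood at 218, 203, 199.7, 207 and 151 CPM there and at most 10.9 elsewhere. Their highest level was 1.85 and 1.45 times the lowest, and kidney was nearest with log2 fold changes of 6.20 ± 0.33 and 4.68 ± 0.27 (edgeR, highest adjusted p 1.32e-15 and 3.6e-15). Cdh1, E-cadherin, was higher in intestine than in each tissue but did not reach 4-fold against liver (1.47 ± 0.36, edgeR adjusted p = 0.000776). Cldn2, a claudin of leaky epithelia, was lower than in kidney (-1.89 ± 0.47, edgeR adjusted p = 0.0011).

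The muscle coat was visible as well: of 24 smooth muscle genes, 7 were intestine-high (11 with library totals), 1 was shared and 21 were called higher than the mean of the 6 tissues. Actg2, the actin of visceral smooth muscle, stood at 166, 186, 175, 131 and 267 CPM and at most 2.87 elsewhere, with a log2 fold change of 6.99 ± 0.59 against pancreas (edgeR, highest adjusted p 9.07e-11). Cnn1, a calponin, stood at 56.4, 80.0, 75.5, 49.2 and 104 CPM, and Myh11, smooth muscle myosin, at 321, 475, 493, 382 and 722. Tacr2, the receptor for neurokinin A, stood at 3.89, 4.53, 7.23, 3.81 and 7.65 CPM. Each was highest in intestine library 5, and Actg2, Cnn1 and Tacr2 were lowest in library 4. Des and Tpm1, which striated muscle also expresses, were lower than in muscle (-5.37 ± 0.40 and -6.48 ± 0.39). Of 19 genes of enteric neurons, glia and pacemaker cells 1, Hand1, was intestine-high, at 0.804, 1.27, 1.15, 0.910 and 1.90 CPM with 2 counts in muscle, a call lost with DESeq2. Uchl1, an abundant neuronal enzyme, was lower than in brain (-6.76 ± 0.41, and -6.42 with brain libraries 2 and 4 alone).

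Of 36 lymphoid and immune genes, 4 were intestine-high, 10 were shared (7 with blood) and 24 were called higher than the mean of the 6 tissues; with library totals 12 were intestine-high. Ccl25, the chemokine that draws lymphocytes to the small intestine, stood at 142, 82.8, 82.7, 73.8 and 65.9 CPM with 1 count in its nearest tissue, pancreas. Jchain, which joins IgA dimers, was at 180.3, 50.8, 128, 151 and 190.2 CPM and at most 17.1 elsewhere, in blood. Mcpt1, a mast cell protease, stood at 56.1, 16.0, 16.1, 24.8 and 46.8 CPM there and at most 2.46 elsewhere. Ccl20, made by the epithelium over lymphoid follicles, was at 11.3, 3.08, 3.19, 3.94 and 2.95 CPM. Ccr9, the receptor of CCL25, was shared with blood, at 8.84, 1.27, 2.80, 3.14 and 7.67 and 2.43 to 6.33 CPM. Spib, of B cells and the follicle epithelium, was shared with blood as well, at 37.5, 19.1, 13.8, 13.9 and 19.3 and 39.5 to 63.0 CPM. Their log2 fold changes of -0.15 ± 0.45 and -1.34 ± 0.40 turned to 4.07 and 2.90 with library totals. For the ligand the levels were thus near 0 in the 6 other tissues compared, and for the receptor they overlapped blood.

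Of 27 drug and steroid genes, 8 were intestine-high, 5 were shared (4 with liver) and 22 were called higher than the mean of the 6 tissues. Cyp3a62, a cytochrome of the intestinal 3A family, stood at 115, 51.9, 49.7, 186 and 63.5 CPM and at most 9.29 elsewhere, in liver. Sult2b1, which sulphates cholesterol, was at 78.0, 64.8, 72.5, 106 and 64.2 CPM and at most 13.4 elsewhere. Cyp1a1, which dietary ligands are known to induce, stood at 8.15, 3.78, 3.98, 48.1 and 49.2 CPM, with libraries 4 and 5 far above the other 3. Ces2j, a carboxylesterase, and Ugt2b17, a glucuronosyltransferase, were shared with liver, at 11.3, 26.2, 27.2, 24.1 and 18.7 against 13.8 to 25.6 CPM and 105, 53.6, 72.4, 112 and 70.2 against 219 to 332 CPM; neither had a count in the other 5 tissues. The export pump Abcc2 and alcohol dehydrogenase Adh1 were lower than in liver (-2.69 ± 0.32 and -6.14 ± 0.69).

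Genes picked out by their even level among the 5 rats were Atp10b, a lipid flippase (67.5, 73.0, 66.6, 68.2 and 62.9 CPM), Galnt7, which adds mucin sugars (64.0, 61.6, 54.1, 58.1 and 59.0), the inflammasome sensor Nlrp6 (113, 126, 138, 129 and 121) and the esterase Bche (68.8, 57.8, 61.0, 66.0 and 68.5). All 4 were intestine-high, with smallest log2 fold changes of 5.39 ± 0.28, 2.90 ± 0.29, 2.72 ± 0.46 and 2.55 ± 0.52. Prap1, a proline-rich protein of the epithelium, and Tm4sf5, a tetraspanin-like protein, were intestine-high with wider ranges, 142, 355, 793, 493 and 346 and 139.9, 159.5, 295, 200.5 and 128 CPM.

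The kidney was the tissue most often nearest, and the anion carrier Slc13a1, which takes up sulphate, was read in intestine (103, 41.4, 77.6, 52.9 and 39.0 CPM) and kidney (67.9 to 187 CPM) and in no library of the other 5 tissues. Pancreas shared Pof1b, an actin-binding protein of junctions (39.2, 21.7, 29.8, 39.9 and 27.2 CPM against 4.51 to 12.1). Pdx1, the factor of duodenum and islets, was also shared with pancreas, at 0.0536, 2.86, 17.5, 1.54 and 2.93 CPM against 1.97 to 5.10. For Pdx1 the mean levels were close, but the intestine values spanned 326-fold, and the log2 fold change of -0.26 ± 0.87 turned to 2.43 with library totals. Brain shared the neuropeptide gene Tac1, which enteric neurons also use, at 2.25, 3.02, 1.78, 1.90 and 3.45 CPM against 5.13 to 9.41. Its log2 fold change of -1.44 ± 0.43 was -1.63 and no longer past the threshold with brain libraries 2 and 4 alone. The receptor gene Npy2r was shared with brain too (0.295, 1.71, 0.255, 0.469 and 1.16 against 0.291 to 2.17 CPM), as were Far2, a fatty acyl reductase (21.7, 14.8, 11.9, 15.4 and 17.4 against 11.0 to 17.9), and Bcas1, of goblet cells and oligodendrocytes (37.1, 14.3, 9.75, 26.8 and 24.9 against 46.2 to 171). With brain libraries 2 and 4 alone the log2 fold changes against brain of Npy2r, Far2 and Bcas1 were -0.50, 0.36 and -2.24, in place of -0.17 ± 0.40, 0.03 ± 0.27 and -1.99 ± 0.32, and Bcas1 was past the 4-fold limit for a shared gene. Muscle shared Exoc3l4 (30.8, 21.8, 32.1, 40.2 and 27.9 against 6.83 to 20.8) and Angptl1 (3.48, 4.15, 4.33, 5.41 and 7.12 against 3.40 to 10.4), and the amino acid carrier Slc7a15 only through intestine library 1 (46.7, 0.481, 0.255, 1.93 and 0.316 CPM). Blood shared Cr2, the complement receptor of B cells, which stood at 57.1, 0, 0, 0.0276 and 19.9 CPM, so that 2 of 5 intestine libraries had none.

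Of the 19 intestine-low genes, 3 are described here, each with at least 10 CPM on average in every other tissue. Fam20c, a kinase of secreted proteins, stood at 2.14, 1.31, 1.69, 2.29 and 2.16 CPM in intestine and at no less than 12.2 CPM in any other library, with log2 fold changes from -5.49 ± 0.30 against kidney to -3.33 ± 0.28 against pancreas (edgeR, highest adjusted p 2.06e-11). Arhgef10l, a guanine nucleotide exchange factor, stood at 2.87, 2.49, 2.42, 2.51 and 2.29 CPM against at least 10.4 elsewhere. Rabac1, a Rab acceptor, stood at 10.6, 8.53, 8.70, 6.43 and 7.96 against at least 23.6. No intestine library overlapped any other for these 3. With library totals Arhgef10l turned against blood (1.48), and none of the 3 kept the call; the 2 genes that did, Wbp11 and LOC108350501, were named after their values were seen.

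The median SD of the log2 level among the 5 intestine libraries, with a pseudocount of 1, was 0.411 over the intestine-high genes and 0.2 over all genes tested, and 70 of the 497 were over 4-fold apart. Without intestine library 1 these 70 fell to 40. The 6 intestine-high genes with the largest SD at a mean of at least 50 CPM were Akp3, Papss2, S100g, Naaladl1, Defa6 and Bco1. Akp3, a second intestinal alkaline phosphatase, stood at 0.0268, 14.3, 1361, 29.4 and 97.3 CPM and Papss2, which makes the sulphate donor, at 7.80, 358, 959, 361 and 442, both lowest in library 1 and highest in library 3. Naaladl1, an ileal peptidase, ran the other way, at 975, 106, 30.4, 182 and 73.2 CPM. Papss2 lost its call without library 3 and in separate fits of 2 tissues, and Akp3 in those fits. In library 1 Papss2 lay below the liver mean of 83.2 CPM and Akp3 below the muscle mean of 0.278 CPM. That muscle mean rests mostly on 1 library, at 1.27 CPM, and muscle libraries 1, 4 and 5 had no count of Akp3. Bco1, at 24.0 CPM in library 1, lay below the liver mean of 25.7 CPM.

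Genes known to mark a position along the gut moved with these libraries. Fabp6, the bile acid carrier of the ileum, stood at 2272, 0.525, 0.319, 0.524 and 1.69 CPM, so library 1 alone held nearly all of it, and its log2 fold change against muscle, 6.00 ± 5.08, did not pass (edgeR adjusted p = 0.334). The bile acid exporter subunits Slc51a and Slc51b stood at 245, 81.8, 76.2, 96.2 and 64.9 and 35.8, 5.57, 7.87, 11.9 and 8.99 CPM, and the distal hormone Pyy at 4.61, 0.240, 0.0637, 0.386 and 0.0527, each highest in library 1. Enteropeptidase, Tmprss15, of the duodenum, stood at 0.107, 21.1, 212, 84.7 and 93.1 CPM. Gata4, the factor of the proximal gut, stood at 26.8, 74.5, 75.0, 57.2 and 56.5 CPM. Both were lowest in library 1. Library 3 was the highest for Pdx1 (17.5 CPM), S100g, the calcium channel Trpv6 (0.0268, 0.0437, 9.97, 0 and 0.237 CPM in libraries 1 to 5), the iron exporter Slc40a1 (0, 1.36, 18.3, 5.38 and 2.48), the iron importer Slc11a2 (23.3, 31.2, 125, 37.2 and 25.5) and Adh1 (8.50, 7.72, 102, 6.87 and 10.7). Enpp7, a sphingomyelinase of the jejunum, was lowest there, at 142, 11.4, 0.0319, 75.1 and 16.7 CPM. Of 50 position genes in the table, 8 had no count in any intestine library, among them the stomach genes Muc5ac, Gkn1 and Gkn2 and the hindgut genes Hoxb13, Hoxd10, Hoxd11, Hoxd12 and Hoxd13. Tmprss15 and Enpp7 did not pass the filter on low counts, which asks for enough counts in at least 5 libraries, and so were not tested; the segment sampled is not in the labels and its part in these differences was not tested.

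Library 1 was also the highest for genes of B cells and follicles: Ms4a1 (CD20) stood at 22.2, 0.0219, 0.127, 0.166 and 4.48 CPM and the follicle chemokine Cxcl13 at 37.0, 2.54, 3.70, 1.41 and 10.8. These genes, Tmprss15, Enpp7, Trpv6, Pyy, Gata4, Guca2a and the other genes of library 1 and 3 named in the last paragraph were chosen after their values were seen. Without intestine library 1 the intestine-high genes numbered 483, of which 466 were among the 497. Of the lists, 1 of 13 brush border enzymes, 1 of 6 enteroendocrine genes and 1 of 5 crypt genes fewer met the call, and the counts of the other lists were the same.

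**Figure D4:**
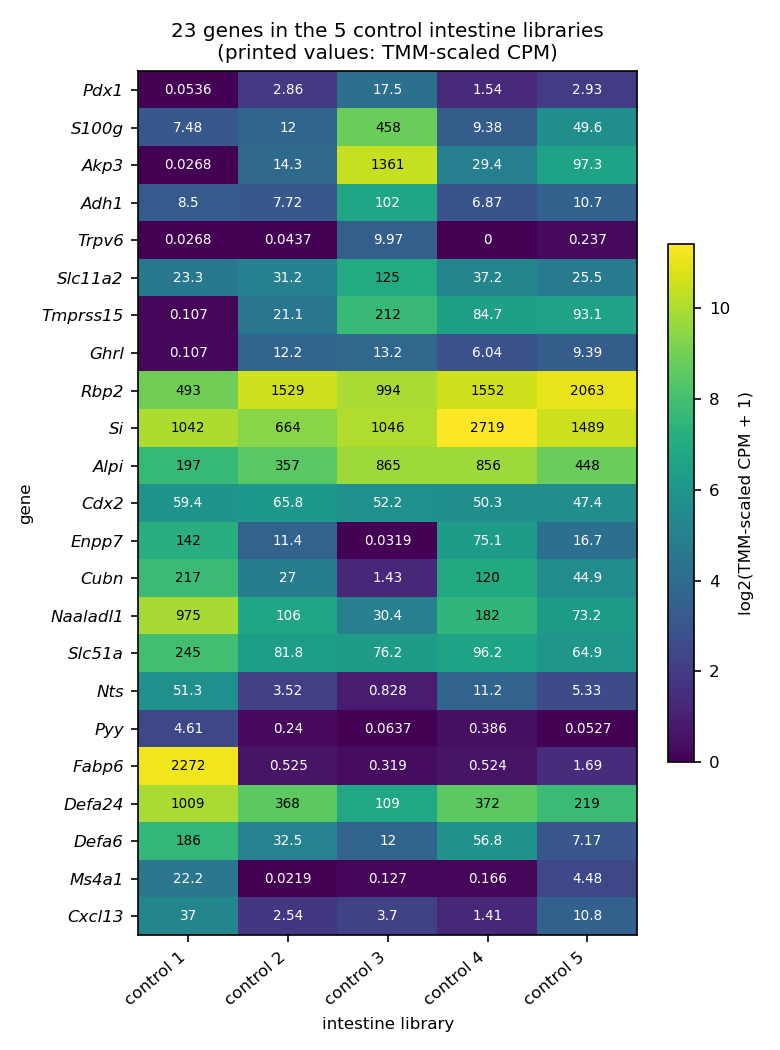
Level of 23 genes in the 5 intestine libraries, as TMM-scaled CPM written in each cell and coloured by log2(CPM + 1). Fabp6 and Naaladl1 were highest in control 1 and Akp3 and S100g in control 3, while Cdx2 stayed between 47.4 and 65.8.

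In the 5 obese pFUS rats, 551 of 16362 genes were intestine-high (3.37%) and 26 were intestine-low (0.159%). Both groups shared 456 intestine-high genes, 91.8% of the control list and 82.8% of the pFUS list, and 8 intestine-low genes, 42.1% and 30.8%. Vil1 stood at 1247, 1124, 1179.9, 1252 and 1092 CPM in the pFUS intestines and at most 81.0 in their other tissues, and Cdx2 at 81.8, 59.5, 61.9, 62.5 and 56.6 and at most 0.0388. Fam20c stood at 1.92, 2.20, 1.79, 1.49 and 1.94 CPM, and Fam20c and Arhgef10l were intestine-low again while Rabac1 was not. Genes of position differed among these libraries too: Fabp6 was at most 1.31 CPM in all 5, and Akp3 stood at 94.1, 2096, 993, 1004 and 1531 CPM. Tmprss15, which passed the filter here, stood at 112, 590.4, 156, 261 and 256 with a smallest log2 fold change of 12.30 (edgeR, highest adjusted p 2.28e-10). Ghrl stood at 15.2, 19.6, 18.2, 21.0 and 13.4 CPM and was intestine-high (6.69), and Nts at 6.55, 1.34, 2.18, 1.89 and 2.07 and was not (edgeR, highest adjusted p 0.57). The 2 groups differ in treatment and were not compared with each other.

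Marker lists of the 6 other tissues gave no intestine-high gene. The call asks for a 4-fold rise over the marked tissue itself, so this says nothing about traces of other tissues. Adipose was not among the 6 tissues. Of 11 adipocyte markers tested, 8 were called higher than the mean of the 6 tissues, a call that 14.2% of all genes met. Their median log2 fold change against that mean was 3.19, or 2.81 with bounds. The intestine-high call was met by 1 of them, Adrb3, at 0.268, 1.25, 1.11, 0.552 and 1.58 CPM. Summed over 15 exocrine pancreas markers the intestine libraries reached 0.475 to 0.988 CPM, with Cela2a, Clps and Ptf1a at 0, and over 10 striated muscle markers 3.98 to 5.54 CPM, with Pvalb at 0. Kidney markers summed to 5.60 to 11.5 CPM, with Umod, Aqp2, Slc22a6 and Slc22a8 at 0, and brain markers to 8.63 to 15.9 CPM, with Mobp, Avp, Oxt and Pmch at 0. Blood cell markers summed to 85.0 to 128 CPM in intestine, against 3083800 to 6599200 in blood on the TMM scale, whose totals differ between tissues, and adipocyte markers to 55.6 to 240.2. Liver markers summed to 397 to 718 CPM, of which Cps1, a urea cycle enzyme that enterocytes also make, was 381, 654, 705, 502 and 604.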

How the data were processed

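RNA sequencing counts per gene were used for 5 control libraries of each of 7 tissues and, as a repeat, 5 obese pFUS libraries of each. The submitters' processing notes name the aligner STAR 2.5.3a, the quantifier RSEM and the rat build Rnor_6.0; for RSEM's version and the annotation release the sources used here give nothing. The authors deposited expected counts for 32623 genes as whole numbers, not normalized. RSEM divides reads shared by near-identical copies by estimate. Genes passed filterByExpr in edgeR 4.0.16 at a minimum count of 10 with groups by tissue, which left 16514, and 16362 in the repeat. The fit held tissue and library number as a block, with TMM factors and robust quasi-likelihood tests, and each SE was taken as the log2 fold change, without its sign, divided by the root of the F statistic. Same-numbered libraries of different tissues correlated at 0.052 on average in their deviations (105 pairs), and different-numbered ones at -0.013 (420 pairs), so the pairing rests on the numbers in the titles and is weak in the counts. A gene at 0 counts in a tissue has a fold given as a bound against 3 counts over that tissue's 5 libraries, and 1 to 3 counts a 95% interval of the ratio; both cover counting error only. No pair of the 10 intestine pairs was identical (at least 17366 genes differed). By the rule for names the text gives Vil1, Cdx1 and Cdx2, the 12 intestine-high genes with the largest smallest fold change, up to 8 intestine-low genes, the 6 with the largest and 4 with the smallest SD among intestine libraries, up to 4 per shared tissue, and up to 6 members of each list and 4 that missed the call. For the first 2 sets a usable symbol, no overlap and a mean of at least 50 or 10 CPM were asked. The members and the lists were chosen with earlier results of these data known. Symbols were matched to RefSeq (14286 of the genes tested), and 509 of 544 list entries were found. Some genes that the rule allows are not reported here. The test was tried on simulated counts. Alternatives were DESeq2 (version 1.42.0), RLE and upper-quartile factors, no filter, no replicate block, 2-tissue fits, other fold thresholds, and leaving out libraries, rats or pancreas; library totals, brain libraries 2 and 4 alone and alternatives for the repeat and the spread were added after seeing the data. R, limma and Python with pandas and matplotlib were used.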

Additional observations from a re-analysis of the deposited data

Results flagged for a closer look

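In 28 of the 144 genes described, the gap between 1 intestine library and the nearest of the other 4 took more than 0.71 of the whole range. In normally distributed values chance gives such a gap in about 1 in 20 groups, but CPM levels without logs need not be normal. The genes were also read from the same 5 libraries, and some were chosen for a wide range or because library 1 or 3 stood out. The number of genes with such a gap is therefore not to be read against that rate. Library 1 was the highest in 16 of them, library 3 in 7 and library 4 in 4, and library 5 was the lowest in 1.

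Among Paneth cell and mucosal defence genes, library 1 held Defa6 at 186 CPM (next 56.8), Defa8 at 322 CPM (next 96.0), Lyz2 at 2016 CPM (next 729) and Pla2g2a at 342 CPM (next 115). Among genes of the ileum, of bile acids and of gut hormones it held Fabp6 at 2272 CPM (next 1.69), Slc51a at 245 CPM (next 96.2) and Slc51b at 35.8 CPM (next 11.9), and Naaladl1 at 975 CPM (next 182), Nts at 51.3 CPM (next 11.2) and Pyy at 4.61 CPM (next 0.386). Among lymphoid and follicle genes it held Ms4a1 at 22.2 CPM (next 4.48), Cxcl13 at 37.0 CPM (next 10.8) and Spib at 37.5 CPM (next 19.3), and Ccl25 at 142 CPM (next 82.8) and Ccl20 at 11.3 CPM (next 3.94). The amino acid carrier gene Slc7a15 at 46.7 CPM (next 1.93) was also highest there.

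Library 3 held the mineral genes S100g at 458 CPM (next 49.6), Trpv6 at 9.97 CPM (next 0.237) and Slc11a2 at 125 CPM (next 37.2). It also held Akp3 at 1361 CPM (next 97.3) and Pdx1 at 17.5 CPM (next 2.93), and Adh1 at 102 CPM (next 10.7) and Cldn2 at 89.9 CPM (next 40.9). Library 4 held Lct at 904 CPM (next 406) and Hnf4g at 141 CPM (next 86.2), and Slc7a9 at 66.7 CPM (next 49.6) and Dgat1 at 312 CPM (next 225); for the last 2 the step was under 1.5 times the next library. Library 5 was the lowest for Cldn7 at 151 CPM (next 199.7).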

How the results depend on the processing

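Of 1172 recomputed counts 1132 stayed within 1.5 times their value, and of 6136 recomputed single-gene fold changes 6057 kept direction and call. Every setting that moved one of these counts by more is given here, and the cause was not tested, except that fewer tissues, fewer libraries or another threshold change the rule itself. Most recomputed values came from leaving out 1 library at a time, so these tallies say little about larger changes of method. Without the replicate block 495 genes were intestine-high, 488 of them among the 497, and 22 were intestine-low. DESeq2 called 386 intestine-high, 385 among the 497; of the 112 it did not call, 102 had a tissue with no count. It gave 30 intestine-low genes and 1362 lower than the mean of the 6 tissues (637 with edgeR), and left 7 of 12 Paneth cell genes, 3 of 8 transcription factors, 2 of 4 uptake genes, 3 of 6 enteroendocrine genes and 0 of 1 neuronal gene; Cdx1, Cdx2, Isx, Atoh1, Gip and Defa6 were among the calls lost with DESeq2 alone.

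Library totals gave 907 intestine-high and 2 intestine-low genes, 6027 higher and 141 lower than the mean, and 170 shared with kidney, 17 with pancreas, 137 with brain and 38 with blood. Intestine-high members became 14 for transcription factors, 14 for junctions, 9 for crypt, 11 for smooth muscle and 12 for immune genes. Higher and lower genes were then 11191 and 1756 against liver, 10186 and 2178 against muscle, 13477 and 756 against pancreas and 14756 and 347 against blood. With library totals the log2 fold change turned to 0.089 for Hnf4a against liver, to 2.43 for Pdx1 against pancreas, and against blood to 1.48 for Arhgef10l, 2.90 for Spib, 4.07 for Ccr9, 1.33 for Lyz2, 1.64 for Pla2g2a and 4.29 for Mki67. Fits of 2 tissues at a time gave 11 intestine-low genes. Without the pancreas libraries 594 were intestine-high, 496 of them among the 497, 38 were intestine-low, and 79 were shared with liver, 25 with muscle and 90 with brain.

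A threshold of 1 on the log2 scale gave 787 intestine-high and 140 intestine-low genes, 4099 and 1976 against the mean, and 88, 26 and 75 shared with liver, muscle and pancreas. A threshold of 3 gave 310 and 4, 1476 and 216, and 3, 24 and 28 shared with muscle, pancreas and brain. With a pseudocount of 0.1 the genes over 4-fold apart among intestine libraries numbered 108. Leaving out 1 library at a time gave 481 to 527 intestine-high genes, 17 to 29 intestine-low ones (29 without intestine replicate 5) and 40 to 61 genes over 4-fold apart (40 without intestine replicate 1), and 435 to 469 intestine-high and 7 to 12 intestine-low genes in both groups of rats. The depth of the other tissues, least in blood on the TMM scale, limits folds of genes at 0 there to bounds; 5 rats per group, 1 kit for pancreas and the unlabelled stretch of intestine limit the rest.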

Other observations

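Low counts of genes of the gut were read in muscle, and for those given here muscle library 2 or 3 was the highest. Fabp6 stood at 0, 4.69, 0, 0 and 0 CPM in muscle libraries 1 to 5, Lgals4 at 0, 1.35, 0.0579, 0.0846 and 0 and Reg3b at 0, 1.76, 0.116, 0 and 0, each highest in library 2. Akp3 stood at 0, 0.117, 1.27, 0 and 0 CPM, Alpi at 0, 0.0586, 0.695, 0 and 0 and Prap1 at 0, 0.0586, 0.405, 0 and 0, each highest in library 3. Muc13 was read in both, at 0, 0.293, 0.463, 0 and 0 CPM, and Tmprss15 only in library 3, at 0.289 CPM. In intestine, Fabp6 was highest in library 1 and Akp3 and Tmprss15 in library 3. These genes were chosen after their values were seen, and muscle was the nearest tissue for 69 of the 497 intestine-high genes.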
